A study of Homo sapiens with 9 samples.

Results

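The genes described here are the creatine synthesis, transport and kinase genes: GATM, GAMT, SLC6A8, CKB, CKMT1A and CKMT1B. They were chosen by name as the core of the creatine pathway, which has been described as a dependency of EVI1-high acute myeloid leukaemia, and the rule used no measured value, although earlier results of these data were known when the genes were listed. Of the 6 genes, GATM, GAMT, SLC6A8 and CKB had values in the count table of 16612 genes, and CKMT1A and CKMT1B were not analysed here. RNA was sequenced from HNT34, an established human acute myeloid leukaemia line with a t(3;3) rearrangement that places an enhancer next to EVI1, a transcription factor encoded by MECOM. The cells carried a lentiviral pZIP-hEF1a-RFP-Puro vector with a non-targeting shRNA (NT), with EVI1 shRNA sh#16 or with EVI1 shRNA sh#87, and were collected 3 days after puromycin selection, with 3 libraries in each group. The NT cells thus shared the vector, the fluorescent reporter and the selection with the knockdown cells. All libraries came from 1 cell line, and the labels do not say whether the 3 libraries of a group were separate cultures, so the p-values measure only the spread between these libraries, which may be technical. One label field names the sh#87 libraries #18, whereas their titles give sh#87.

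Creatine is a small nitrogen compound that cells make in 2 steps or import. GATM (arginine:glycine amidinotransferase) joins arginine and glycine into guanidinoacetate and releases ornithine, GAMT (guanidinoacetate N-methyltransferase) methylates guanidinoacetate to creatine with S-adenosylmethionine as the donor, and SLC6A8 is the sodium- and chloride-dependent creatine transporter of the plasma membrane. Creatine kinases then move the terminal phosphate of ATP onto creatine and back: CKB is the cytosolic brain-type enzyme, and CKMT1A and CKMT1B both encode the ubiquitous mitochondrial enzyme, which sits in the intermembrane space near the adenine nucleotide carriers. Phosphocreatine serves as a buffer and shuttle of high-energy phosphate in muscle and brain, and some leukaemia cells also depend on it.

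The promoter windows of GATM and SLC6A8, which rose with knockdown, and of CKB, which did not, are shown so that their letters can be compared; the window of GAMT, which also rose, was not analysed here. Each is the RefSeq window (GRCh38.p14) of 250 bases before to 50 bases after the start of transcription, written 5′ to 3′ on the strand of the gene; GATM lies at chr15:45378495-45378794 on the minus strand, SLC6A8 at chrX:153687676-153687975 on the plus strand and CKB at chr14:103522781-103523080 on the minus strand. Capitals mark matches on either strand to the letters of 6 motifs: the GC box GGGCGG, the CCAAT box CCAAT, the TATA box TATAAA, the RUNX core TGTGGT, the GATA-like hexamer AGATAA and the E-box CACGTG; none of the matches shown overlap, although they can touch.
GATM: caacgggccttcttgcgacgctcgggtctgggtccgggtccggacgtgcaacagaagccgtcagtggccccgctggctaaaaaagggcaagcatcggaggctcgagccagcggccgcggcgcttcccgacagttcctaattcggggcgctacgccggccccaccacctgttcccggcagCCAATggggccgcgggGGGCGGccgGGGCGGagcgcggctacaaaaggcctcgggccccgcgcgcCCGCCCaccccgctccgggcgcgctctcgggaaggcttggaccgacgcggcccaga
SLC6A8: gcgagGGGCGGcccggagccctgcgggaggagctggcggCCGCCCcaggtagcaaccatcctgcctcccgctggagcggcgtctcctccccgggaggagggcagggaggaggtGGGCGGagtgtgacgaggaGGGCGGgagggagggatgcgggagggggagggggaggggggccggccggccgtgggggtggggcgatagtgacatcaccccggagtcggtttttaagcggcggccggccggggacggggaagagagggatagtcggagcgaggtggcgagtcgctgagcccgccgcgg
CKB: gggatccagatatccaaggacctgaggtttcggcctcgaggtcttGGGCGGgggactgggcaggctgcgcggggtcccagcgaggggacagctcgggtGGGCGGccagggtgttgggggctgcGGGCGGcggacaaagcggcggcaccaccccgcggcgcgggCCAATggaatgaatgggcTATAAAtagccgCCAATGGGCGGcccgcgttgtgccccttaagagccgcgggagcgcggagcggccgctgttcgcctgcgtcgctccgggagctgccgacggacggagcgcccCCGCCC
The 3 windows held 73.3%, 75.3% and 72.3% G and C, against a median of 58.7% over all 35116 windows of that length. None held the RUNX core, the GATA-like hexamer or the E-box, which were found in 13.1%, 10.3% and 7.26% of all windows. The GC box, present in 45.0% of all windows, occurred in all 3. The CCAAT box, present in 34.6% of all windows, occurred in GATM and CKB, and the TATA box, present in 11.5%, occurred in CKB. A match of letters is a description of the window and not a binding site.

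Total counts ranged from 17096170 to 43502389 per library. The share of counts from the 15 mitochondrially encoded genes was 15.9%, 11.5% and 4.69% in NT replicates 1 to 3, between 2.69% and 2.88% with sh#16, and between 4.62% and 5.97% with sh#87. The NT libraries also differed more among themselves (biological coefficient of variation 23.0%) than the sh#16 (3.67%) or sh#87 libraries (6.24%). Levels below are CPM (the count of a gene scaled to library size) after TMM normalisation, tests are edgeR's quasi-likelihood test adjusted over the 16312 genes tested (Benjamini-Hochberg), and a gene passed at an adjusted p of at most 0.01. A gene that passed and also had a log2 fold change of at least 2 in size is called a DEG. In bulk RNA, a lower level in every cell and a smaller number of expressing cells cannot be told apart.

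MECOM, the gene targeted by both shRNAs, measured 571, 504 and 440 CPM in the NT libraries, 145, 143 and 145 CPM with sh#16, and 109, 107 and 106 CPM with sh#87. The groups did not overlap. MECOM fell to 28.6% of NT with sh#16 (log2 fold change -1.81, SE 0.09, adjusted p = 3.33e-07) and to 21.3% with sh#87 (log2 fold change -2.23, SE 0.09, adjusted p = 6.91e-08), and was lower with sh#87 than with sh#16 (log2 fold change -0.43, SE 0.09, adjusted p = 0.00661). RUNX1, a haematopoietic transcription factor, ranged from 197 to 241 CPM in NT, from 213.7 to 214 CPM with sh#16 and from 131 to 139 CPM with sh#87. RUNX1 did not pass the test with sh#16 (log2 fold change -0.07, SE 0.08, adjusted p = 0.459) and fell with sh#87 (log2 fold change -0.74, SE 0.08, adjusted p = 2.24e-05).

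With both shRNAs taken as 1 group of 6, GATM, GAMT and SLC6A8 rose and CKB did not pass the test. Thus 3 of the 4 genes measured passed, all of them higher, where 59.8% of all genes tested passed and 30.1% passed as higher and 29.7% as lower. The same 3 genes rose with sh#16 alone, where 60.0% of all genes passed 29.8% as higher and 30.2% as lower, and with sh#87 alone, where 67.9% passed 34.3% as higher and 33.6% as lower. GATM was the only one of the 4 to be a DEG, in each of these comparisons; DEGs were 15.4% of all genes with both shRNAs (9.74% higher), 12.8% with sh#16 (7.95% higher) and 18.9% with sh#87 (11.7% higher). The median log2 fold change of the 4 genes was 1.71 with both shRNAs, against 0.05 over all genes. That median lies between GAMT and SLC6A8, which rose less with the length and GC correction described below (0.95 and 0.91).

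**Figure D1:**
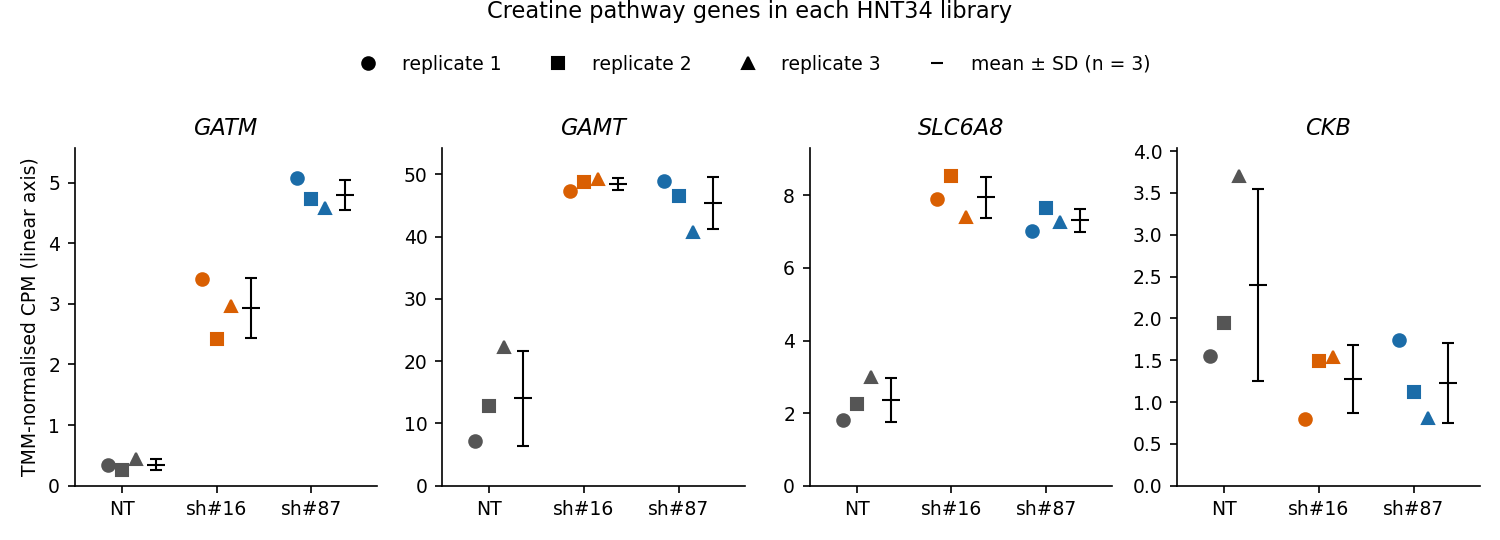
TMM-normalised CPM (linear axes starting at 0) of GATM, GAMT, SLC6A8 and CKB in each library by group; symbols mark the replicate number, and the bar beside each group gives the mean ± SD of 3 libraries. All 6 knockdown libraries lie above all 3 NT libraries for GATM, GAMT and SLC6A8, as for 33.9% of all genes tested. For CKB the sh#87 libraries overlap NT, and the sh#16 libraries lie just below it.

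GATM, which catalyses the first and committed step of creatine synthesis, changed most. It was counted 8, 6 and 13 times in the NT libraries, or 0.344, 0.260 and 0.434 CPM. With sh#16 it was counted 85, 112 and 54 times, or 3.41, 2.42 and 2.96 CPM, and with sh#87 122, 106 and 90 times, or 5.07, 4.74 and 4.58 CPM. Every knockdown library was above every NT library, an order that 33.9% of all genes tested also showed, and every sh#87 library was above every sh#16 library. The exact Poisson 95% interval of the highest NT level, which covers counting error only, ran from 0.231 to 0.742 CPM, and that of the lowest knockdown level from 1.99 to 2.91 CPM. GATM rose 10.9-fold with both shRNAs (log2 fold change 3.44, SE 0.35, adjusted p = 1.07e-05), the 564th highest log2 fold change of the 16312 genes. It passed the low-count filter only through the knockdown libraries, where it was high, so its test, rank and DEG call carry that selection. Without the filter the log2 fold change was 3.45 (SE 0.34, adjusted p = 1.05e-05). It rose 8.19-fold with sh#16 (log2 fold change 3.03, SE 0.23, adjusted p = 3.31e-06) and 13.5-fold with sh#87 (log2 fold change 3.75, SE 0.22, adjusted p = 5.28e-07). An unnamed antisense long noncoding RNA overlaps GATM, and the strand setting of the counting is not given in the sources used here.

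The direct comparison of the shRNAs gave a GATM level 1.65-fold higher with sh#87 than with sh#16 (95% interval 1.25 to 2.17, log2 fold change 0.72, SE 0.18), and its adjusted p of 0.0135 did not pass, where 17.7% of all genes passed. The difference did pass without NT replicate 1 (adjusted p = 0.00850), without NT replicate 3 (adjusted p = 0.00463) and when the NT libraries were left out of the fit altogether (log2 fold change 0.75, SE 0.15, adjusted p = 0.00177). By edgeR's test 0 of the 4 creatine genes passed between the shRNAs, 1 of them (GATM) had an unadjusted p under 0.05 (0.00275), and with DESeq2 1 of them, again GATM, passed (adjusted p = 0.00480). Over all alternatives the adjusted p of GATM ranged from 4.00e-04 to 0.0647.

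GAMT, which completes creatine synthesis, was the most abundant of the 4 genes. It measured 7.10, 12.7 and 22.2 CPM in NT replicates 1 to 3, 47.3, 48.7 and 49.2 CPM with sh#16, and 48.9, 46.5 and 40.8 CPM with sh#87. The knockdown libraries lay close together and above all NT libraries, an order that 33.9% of all genes tested also showed. The NT libraries spread 3-fold, and over all genes too they varied more than the knockdown libraries. GAMT rose 3.33-fold with both shRNAs (log2 fold change 1.74, SE 0.28, adjusted p = 3.07e-04), 3.43-fold with sh#16 (adjusted p = 8.84e-04) and 3.22-fold with sh#87 (adjusted p = 0.00102). Between the shRNAs the ratio was 0.938 (95% interval 0.578 to 1.52, adjusted p = 0.845). That interval includes the spread of the NT libraries, and with the 2 shRNA groups fitted alone the log2 fold change was -0.08 (SE 0.06, adjusted p = 0.308).

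SLC6A8, the creatine importer, measured 1.81, 2.25 and 3.00 CPM in the NT libraries, 7.91, 8.54 and 7.39 CPM with sh#16, and 7.03, 7.64 and 7.27 CPM with sh#87. As for GAMT, all 6 knockdown libraries lay above all 3 NT libraries, an order that 33.9% of all genes tested also showed. The 2 shRNA groups overlapped each other. Relative to their level, the knockdown libraries were the tighter ones. SLC6A8 rose 3.23-fold with both shRNAs (log2 fold change 1.69, SE 0.18, adjusted p = 1.58e-05), 3.35-fold with sh#16 (adjusted p = 1.96e-05) and 3.08-fold with sh#87 (adjusted p = 2.33e-05). The ratio of sh#87 to sh#16 was 0.918 (95% interval 0.713 to 1.18, adjusted p = 0.588). Of the 100-base windows of the SLC6A8 transcript, 2.06% also occur in other transcripts, among them the pseudogene SLC6A10P, and PNCK overlaps SLC6A8 on the opposite strand, so a small part of its counts could belong elsewhere. No such shared window was found in CKB, GATM or GAMT.

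CKB, the cytosolic kinase, was the only one of the 4 genes with a lower mean after knockdown, and the difference did not pass. It was counted 36, 45 and 111 times in the NT libraries, or 1.55, 1.95 and 3.70 CPM. With sh#16 it measured 0.803, 1.49 and 1.53 CPM, and with sh#87 1.75, 1.12 and 0.813 CPM, from 16 to 69 counts. The sh#87 libraries overlapped NT, since sh#87 replicate 1 was above NT replicate 1. Every sh#16 library was below every NT library, but by a narrow margin (1.53 against 1.55 CPM). NT replicate 3 stood above all other libraries. The knockdown level was 52.1% of NT with both shRNAs (95% interval 31.1% to 87.4%, log2 fold change -0.94, SE 0.34, adjusted p = 0.0272), 52.9% with sh#16 (adjusted p = 0.0643) and 51.1% with sh#87 (adjusted p = 0.0544). The ratio of sh#87 to sh#16 was 0.967 (95% interval 0.496 to 1.89, adjusted p = 0.945).

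**Figure D2:**
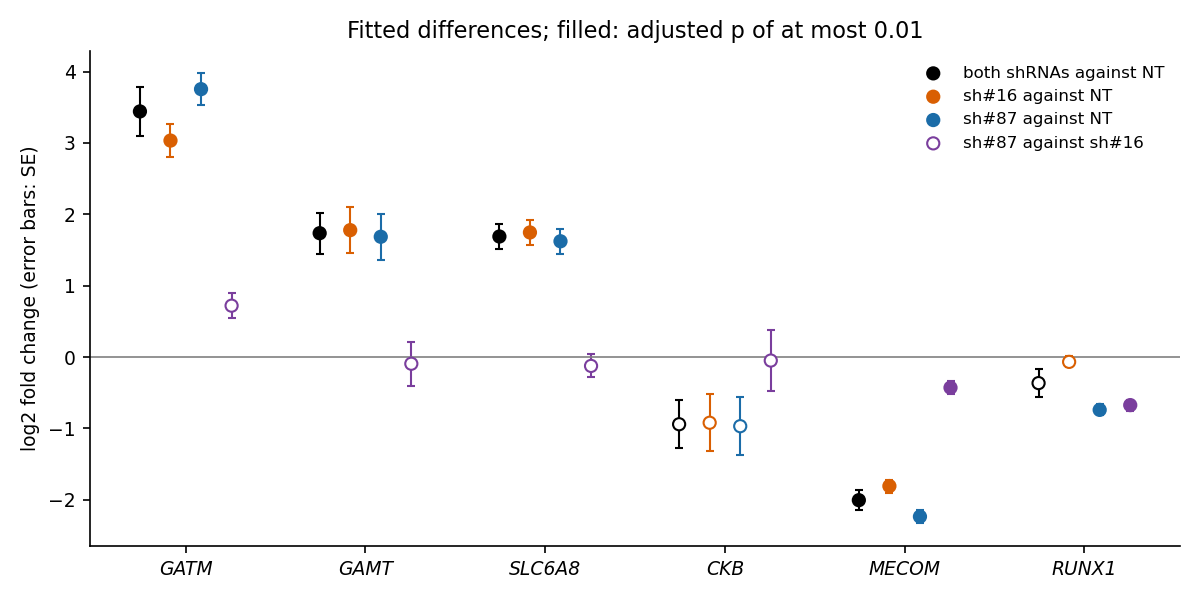
Fitted log2 fold changes of the 4 creatine pathway genes, MECOM and RUNX1 in the 4 comparisons, with SE as error bars; filled symbols passed at an adjusted p of at most 0.01. GATM, GAMT and SLC6A8 are above 0 in all 3 comparisons with NT (3.44, 1.74 and 1.69 with both shRNAs), CKB is below 0 without passing, and none of the 4 passed between the shRNAs.

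The sizes of the GAMT, SLC6A8 and CKB differences moved with the NT libraries and with base composition. GAMT, SLC6A8 and CKB were all lowest in NT replicate 1, which had the highest mitochondrially encoded share, and highest in NT replicate 3, which had the lowest of the NT libraries; GATM did not follow that order. With NT replicates 1 and 2 left out together, which leaves 1 NT library assumed to vary like the other groups, the rise with both shRNAs was 2.12-fold for GAMT (adjusted p = 4.31e-04), 2.55-fold for SLC6A8 (adjusted p = 8.45e-04) and 8.84-fold for GATM (adjusted p = 0.00297). The CKB level was then 34.2% of NT replicate 3, with an adjusted p of 0.0137 for both shRNAs, 0.00377 for sh#16 and 0.00333 for sh#87. The transcripts of GAMT, CKB and SLC6A8 are rich in G and C (66.0%, 64.1% and 63.0%, against a median of 48.6% over 14019 genes with a transcript), whereas that of GATM is not (42.1%). When a trend of each library on transcript GC content and length was removed, GAMT rose 1.94-fold (adjusted p = 2.88e-05), SLC6A8 rose 1.87-fold (adjusted p = 1.33e-04), GATM rose 13.1-fold (adjusted p = 9.60e-06) and CKB passed as lower, at 32.1% of NT in place of 52.1% (log2 fold change -1.64, SE 0.25, adjusted p = 1.66e-04). All 4 genes passed in each comparison with NT under that correction.

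**Figure D3:**
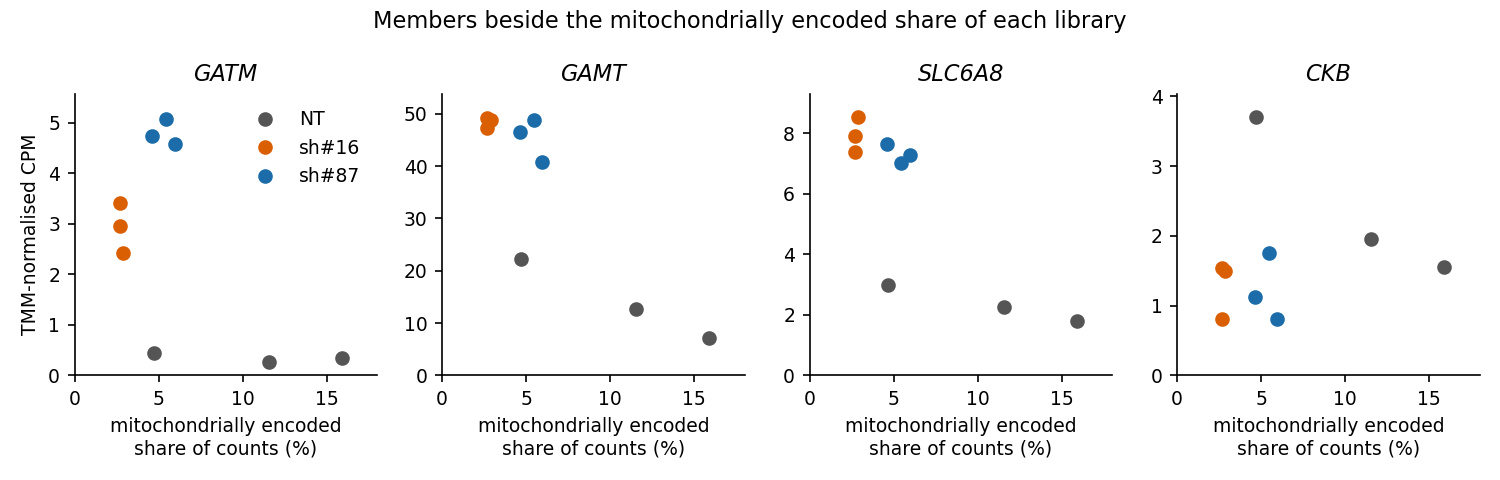
TMM-normalised CPM of the 4 genes (vertical axes from 0) against the percentage of counts from mitochondrially encoded genes, 1 point per library, coloured by group. NT replicate 3, at 4.69%, lies in the range of the sh#87 libraries on the horizontal axis, with GATM, GAMT and SLC6A8 below all knockdown libraries and CKB above them.

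Compared per kilobase of transcript, the order of the genes differed between the groups. In NT cells GAMT stood at 12.6 ± 6.90 CPM per kb (SD, n = 3), CKB at 1.69 ± 0.807, SLC6A8 at 0.599 ± 0.154 and GATM at 0.147 ± 0.037, and no neighbours in that order overlapped. With sh#16, GAMT (43.6 ± 0.882 CPM per kb) was followed by SLC6A8 (2.02 ± 0.146), GATM (1.25 ± 0.211) and CKB (0.899 ± 0.289), with GATM and CKB overlapping. With sh#87, GAMT (40.9 ± 3.75 CPM per kb) was followed by GATM (2.04 ± 0.108), SLC6A8 (1.86 ± 0.079) and CKB (0.863 ± 0.335). GATM and SLC6A8 were next to each other there, with ranges of 1.95 to 2.16 and 1.79 to 1.94 CPM per kb. CKB thus stood next to GAMT in NT cells and last with either shRNA, whereas GATM stood last in NT cells and above CKB with either shRNA.

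The RNA counts of the 2 synthesis genes were also set against each other, without a test and without adjustment for transcript length. There were 20.6, 49.0 and 51.3 counts of GAMT for each count of GATM in the NT libraries, 13.9, 20.1 and 16.6 with sh#16, and 9.63, 9.82 and 8.91 with sh#87. These ratios do not depend on the library normalisation, and those of NT rest on 6 to 13 counts of GATM. The lowest NT ratio (20.6) was close to the highest with sh#16 (20.1). The ratio of GAMT to SLC6A8 counts lay between 3.93 and 7.41 in NT and between 5.61 and 6.95 in the knockdown libraries, with overlapping ranges.

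CKMT1A and CKMT1B, which carry the mitochondrial kinase, lie at chr15:43692786-43699222 and chr15:43592857-43599406 (GRCh38.p14). Their main transcripts are both 1579 bases long and differ by 4 edits, with an identical run of 1247 bases, and 84.4% of their 100-base windows are the same in both. Reads of 100 bases, the length used here, would in most places not tell them apart, so values for either alone would have been uncertain. Neither is analysed here, and nothing in the values above bears on mitochondrial creatine kinase.

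Genes that supply or use the substrates of GATM moved in both directions. The values of this list and of the lists that follow are without the length and GC correction, which made the rises of GAMT and SLC6A8 smaller. In the list of arginine, ornithine and glycine genes, 4 of 9 analysed rose and 4 fell with both shRNAs (median log2 fold change 0.46), where 30.1% of all genes rose and 29.7% fell. SLC7A1, the cationic amino acid transporter that imports arginine, fell from 432 ± 43.7 CPM in NT (SD, n = 3) to 81.0 ± 3.19 with sh#16 and 58.1 ± 1.77 with sh#87 (log2 fold change with both shRNAs -2.63, SE 0.15, adjusted p = 2.45e-07). ASL, argininosuccinate lyase, which forms arginine, rose (log2 fold change 0.92, SE 0.19, adjusted p = 0.00145), as did ODC1, the ornithine decarboxylase that starts polyamine synthesis (log2 fold change 0.68, adjusted p = 0.00190). The cytosolic serine hydroxymethyltransferase SHMT1 rose (0.61 on the log2 scale) while the mitochondrial SHMT2 fell (-1.02), as did GCSH of the glycine cleavage system (-0.69).

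In the list of methyl donor genes, which covers the supply and use of the S-adenosylmethionine that GAMT consumes, 6 of 10 analysed fell with both shRNAs and the other 4 did not pass (median log2 fold change -0.33). Over all genes 59.8% passed and 29.7% passed as lower. The share passing in the list was thus that of the background, but all 6 that passed were lower. Whether lower genes were over-represented in the list was not tested. ADK passed as higher with sh#16 alone and AHCYL2 with sh#87 alone; both are named because of their values. MTR, methionine synthase, fell from 243 ± 31.1 to 128 ± 0.656 CPM with sh#16 and 126 ± 4.2 with sh#87 (log2 fold change with both shRNAs -0.93, SE 0.09, adjusted p = 5.89e-06). Its reductase MTRR fell (-0.82, SE 0.09), as did PEMT, phosphatidylethanolamine N-methyltransferase, another consumer of the donor (-0.95, SE 0.23, adjusted p = 0.00389).

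Among the adenine nucleotide carriers, outer membrane channels and adenylate kinases, which handle the ATP and ADP that creatine kinases exchange, 3 of 14 analysed rose and 6 fell (median log2 fold change -0.55), a share passing near the 59.8% of all genes (30.1% higher and 29.7% lower). The carrier SLC25A6 fell from 368 ± 43.8 CPM to 152 ± 4.54 with sh#16 (log2 fold change with both shRNAs -1.31, SE 0.09, adjusted p = 8.97e-07), and the channel VDAC1 (-1.25, SE 0.18) and the mitochondrial adenylate kinase AK3 (-1.37, SE 0.19) fell too. SLC25A4, the heart and muscle carrier, rose from 11.2 ± 0.353 CPM to 19.6 ± 1.56 with sh#16 (log2 fold change with both shRNAs 0.63, SE 0.14, adjusted p = 0.00255). The other 2 that rose, AK7 and AK8, named after their values were seen, were under 5 CPM in every group. They had at most 2 and 1 counts in any NT library and passed the low-count filter only through the knockdown libraries. Both could therefore pass only as higher, which limits the count of genes that rose.

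AMP-activated protein kinase responds to the ratio of AMP to ATP. Of its subunits and the kinases that activate it, 2 of 7 analysed rose and 3 fell (median log2 fold change 0.16). Over all genes 30.1% rose and 29.7% fell, so these counts are not particular to the list. STK11 (LKB1, an activating kinase) rose from 35.4 ± 11.5 to 69.4 ± 3.10 CPM with sh#16 (log2 fold change with both shRNAs 1.04, SE 0.18, adjusted p = 3.71e-04), and the subunit PRKAG1 rose (0.86, SE 0.15). The catalytic subunit PRKAA1 (-0.86, SE 0.12), the subunit PRKAG2 (-0.77, SE 0.18) and the activating kinase CAMKK2 (-0.59, SE 0.09) fell. The muscle kinase CKM, the sarcomeric CKMT2 and the creatine carrier SLC16A12 were not analysed here.

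**Figure D4:**
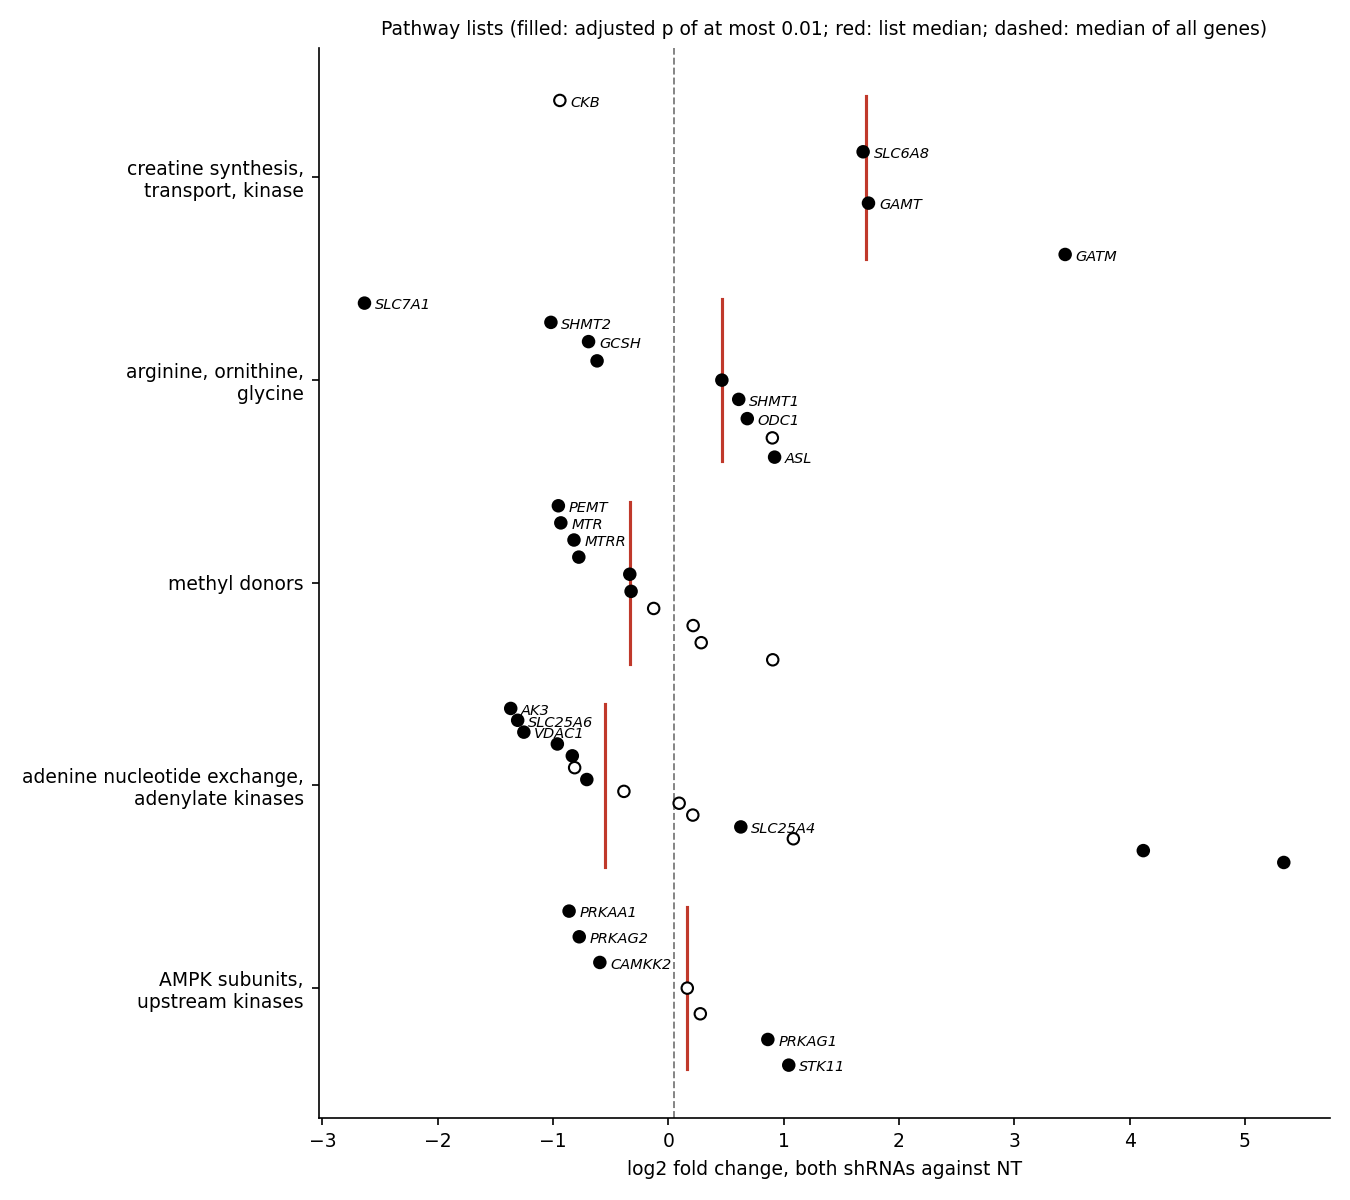
Log2 fold change of each analysed gene, both shRNAs against NT, in the creatine genes and in 4 lists of neighbouring metabolism; filled points passed at an adjusted p of at most 0.01, the red line is the median of the list and the dashed line that of all genes (0.05). The creatine genes have the highest list median (1.71) of those plotted, and the adenine nucleotide list the lowest (-0.55). The values plotted are without the length and GC correction, with which GAMT and SLC6A8 rose less (0.95 and 0.91).

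Markers of cell identity moved in the same libraries. Of 8 myeloid and progenitor markers, 7 were analysed and 4 fell with both shRNAs (29.7% of all genes did). These were CD34 (log2 fold change -3.20), PTPRC (CD45, -2.82), the transcription factor SPI1 (-2.40) and KIT (-1.47). CD33 (-0.22), ANPEP (-0.35) and FLT3 (0.02) did not pass. With sh#16 alone FLT3 passed as higher (0.41, adjusted p = 0.00217), and with sh#87 alone all 7 passed as lower. The summed level of the 7 was 2016 to 2132 CPM in NT, 643 to 654 with sh#16 and 360 to 365 with sh#87. Of the lymphoid markers, CD79A (-3.36) and CD3E (-1.20) fell, the others not being reported here, and the sum of these 2 was 23.5 to 47.3 CPM in NT, 8.04 to 8.87 with sh#16 and 3.66 to 5.05 with sh#87. Of 6 epithelial and stromal markers, COL1A1 rose from 0.116 ± 0.066 CPM in NT to 26.4 ± 0.498 with sh#16 and PDGFRB fell from 9.64 ± 3.96 to 0.132 ± 0.045 CPM, while the others, and all 7 muscle and neural markers, were not analysed here. The part of these changes in the creatine gene results was not tested.

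For each of the 4 genes, the genes with the most similar pattern over the 9 libraries were found from the root mean square difference of centred log2 CPM, among 13834 other genes of at least 1 CPM. SOWAHC (0.15), AZIN2 (0.17) and NEK10 (0.19) were most like GATM, YIF1B (0.056), MAP1S (0.066) and ZDHHC18 (0.071) most like GAMT, and UBL7 (0.067), CHST12 (0.079) and HARBI1 (0.082) most like SLC6A8. CKB was most like DNLZ (0.18), CTD-3074O7.5 (0.22) and COL23A1 (0.23). Within the pathway, GAMT and SLC6A8 were nearest to each other (0.25), GATM stood further away (0.79 from GAMT and 0.81 from SLC6A8), and CKB was furthest (1.26 to 1.99). SLC6A8 was the 178th most similar gene to GAMT, and GAMT the 375th most similar to SLC6A8, so many other genes were closer to each. Both have transcripts rich in G and C and followed the same order over the NT libraries, as described above.

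**Figure D5:**
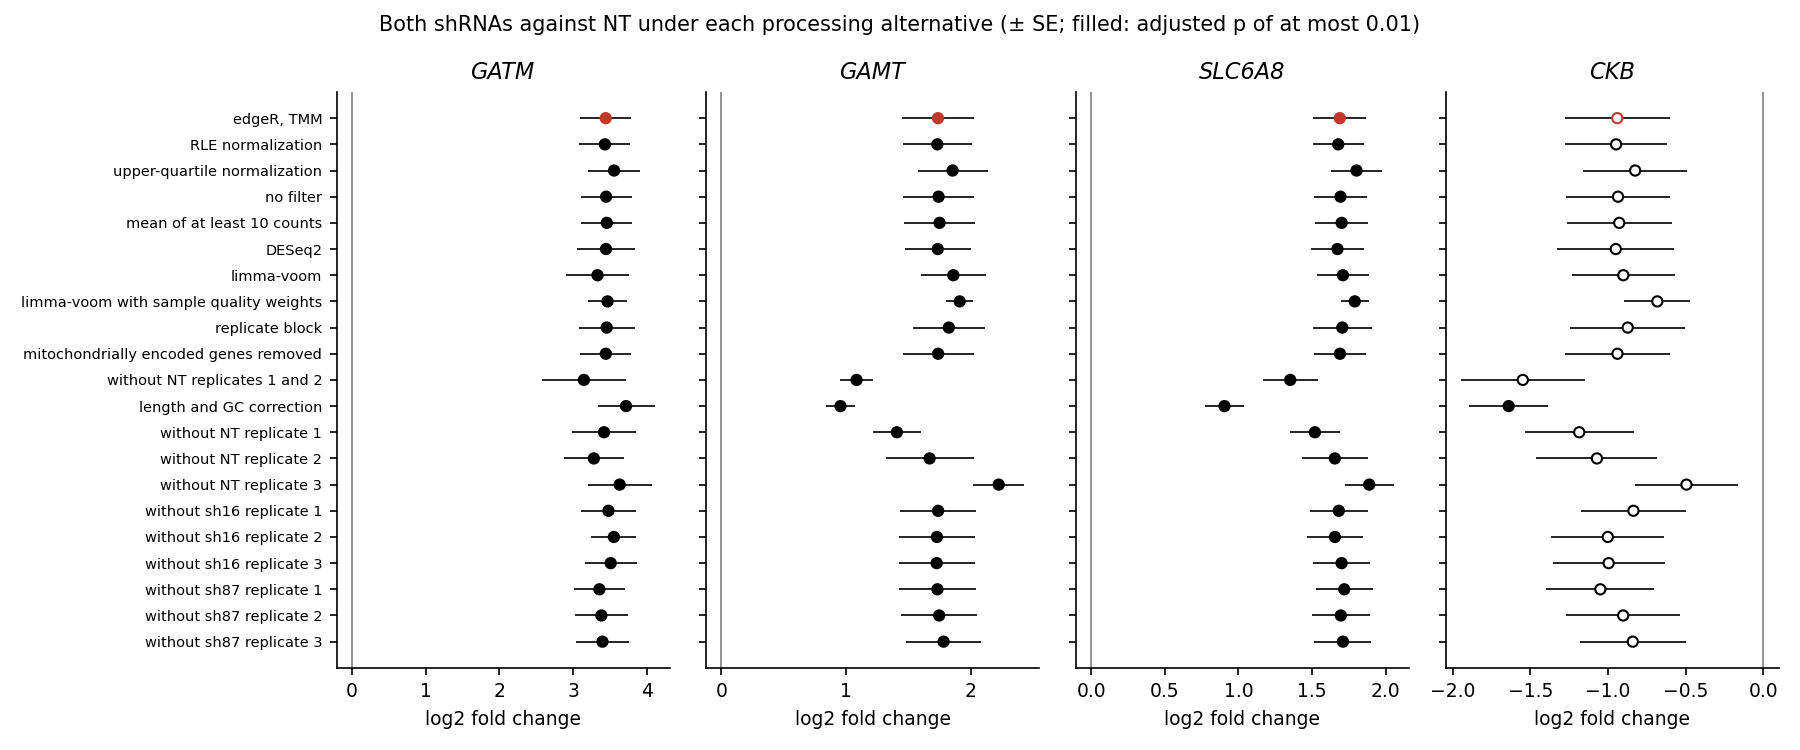
Log2 fold change (± SE) of the 4 genes, both shRNAs against NT, under each processing alternative, with the reported fit in red and filled points passing at an adjusted p of at most 0.01. GATM stays between 3.14 and 3.72, GAMT between 0.95 and 2.22 and SLC6A8 between 0.91 and 1.89, all passing, and CKB stays below 0 and passes only with the length and GC correction.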

How the data were processed

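RNA-seq libraries of HNT34 cells were analysed, 3 each of NT, sh#16 and sh#87. The authors prepared polyA-selected, stranded libraries, sequenced single reads of 100 bases and, per the methods, checked them with FastQC (1.3 in the submitters' processing notes), aligned them with STAR to GRCh38 and counted per gene, while the header of the deposited table names salmon output. The authors deposited estimated counts per gene, without normalisation, and all were whole numbers, so rounding changed nothing. Column names are offset by 1 from the values they belong to, and were matched to libraries by name.

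The counts were filtered with filterByExpr (16312 of 16612 genes kept), normalised by TMM and tested with edgeR 4.0.16 (quasi-likelihood, Benjamini-Hochberg over all genes tested), in R 4.3.3. A 2-group fit served both shRNAs against NT and a 3-group fit the other 3 comparisons. SE is the log2 fold change over the square root of F. Each library's log2 CPM (prior count 2) was regressed on transcript GC and length (loess) for the GC correction; transcripts were matched for 84.4% of genes. Lengths came from GENCODE v44 on GRCh37, and promoters and gene positions from RefSeq (GRCh38.p14). DESeq2 1.42.0 and limma 3.58.1 were alternatives. Other creatine and substrate genes were named by a rule: up to 3 per list and direction with the largest change with both shRNAs, among those that passed and reached 5 CPM. The members and lists were chosen with earlier results of these data known. Fits were tested on simulated data that gave every group the same spread, unlike these data, in which the NT libraries varied more. At these depths 3 counts equal 0.065 to 0.164 CPM. Libraries of the same replicate number showed little shared deviation (correlations from -0.14 to 0.083). With 3 libraries per group and a wide spread in NT, that cannot settle whether they were made together. CKMT1A and CKMT1B, and the comparisons of their sum and share, were not analysed here. Some lymphoid markers of the fixed list are not reported here.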

Additional observations from a re-analysis of the deposited data

Results flagged for a closer look

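Among the 6 knockdown libraries, 2 of 32 measures had a library far from the others by Dixon's test. These libraries pool both shRNAs, which differed for some of the genes, so a 1 in 20 rate of chance flags need not apply. GAMT was lowest in sh#87 replicate 3 (40.8 CPM, gap over range 0.683). The library size of sh#16 replicate 2 (43502389 counts) stood above the rest (gap over range 0.773).

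The effects of the shRNAs differed for 9 of 31 named genes by the direct test of sh#87 against sh#16 (edgeR, adjusted p of at most 0.01), where 17.7% of all genes passed, the 4 creatine genes not among them. MECOM was lower with sh#87 by -0.43 on the log2 scale and RUNX1 by -0.67. SLC7A1 differed by -0.48, ODC1 by 0.45, VDAC1 by -0.60 and AK3 by -0.61. The myeloid markers CD34, PTPRC and SPI1 differed by -1.46, -0.51 and -0.93.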

How the results depend on the processing

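GATM, GAMT and SLC6A8 passed as higher in all 3 comparisons with NT under every alternative run: other normalisations, filters and tools, the replicate block, removal of mitochondrially encoded genes, and each library left out. Adding the log2 threshold of 2 left 1 creatine gene (GATM) in each comparison with NT and 0 between the shRNAs, and 2511, 2087, 3079 and 74 of all genes with both shRNAs, sh#16, sh#87 and sh#87 against sh#16. With both shRNAs, 5672 genes passed without NT replicates 1 and 2. Without the log2 threshold, 1 creatine gene (GATM) passed between sh#87 and sh#16 at an adjusted p of 0.05 (5498 of all genes) and at 0.01 with DESeq2, limma-voom, limma-voom with quality weights (7812 of all genes), the groups compared alone (7534), without NT replicates 1 and 2 (7432) and with the length and GC correction; with the replicate block none did, and 1588 of all genes passed in place of 2890. Leaving out 1 library gave 0 to 1 creatine genes and 1098 to 5326 of all genes for that comparison, and its CKB log2 fold change ranged from -0.40 to 0.17, changing sign without sh#16 replicate 2 or 3 or sh#87 replicate 2 or 3. The causes were not tested. Upper-quartile scaling shifted the median over all tested genes (log2, both shRNAs against NT) from 0.05 to 0.16. The replicate block changed no call of a creatine gene. Leaving out NT replicates 1 and 2 together and the GC correction were added after seeing the data. With 6 to 13 NT counts of GATM and 16 to 111 counts of CKB per library, depth limits the precision of both.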
